A study of Mus musculus with 19 samples.

Results

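Genes for the subunits of voltage-gated sodium and calcium channels were followed in mouse hippocampus on Affymetrix whole-transcript arrays. Members were the symbols of the array annotation made of Scn, a number and a or b, or beginning with Cacna, Cacnb or Cacng, each read from the probe set that carries the symbol alone and has the highest mean over all 19 arrays. This gave 34 genes of 19938 measured, 11 for sodium and 23 for calcium channels. Scn4a, Cacnb3 and Cacng6 were not analysed here. The arrays came from 4 groups of C57BL/6J mice, all 6 months old when hippocampus was taken: 5 samples of APP-PS1 mice fed ibuprofen chow, 5 of APP-PS1 mice fed control chow, 5 of wild-type littermates fed ibuprofen chow and 4 of wild-type littermates fed control chow. APP-PS1 mice carry 2 transgenes that the labels write APPSwe-PS1deltaE9, a mutant human amyloid precursor protein with a mutant presenilin. Ibuprofen, an inhibitor of cyclooxygenases, was mixed into the same rodent chow at 375 ppm and eaten freely from 3 months of age on. The labels name neither the promoter of the transgenes nor the sex of the mice.

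Voltage-gated channels open when the membrane depolarises. Sodium channels carry the upstroke of the action potential through a single large pore protein with smaller beta subunits beside it. Calcium channels turn depolarisation into calcium entry, which releases transmitter at presynaptic terminals, drives dendritic spikes and signals to the nucleus. Their pore proteins fall into L-type, P/Q-, N- and R-type, and low-threshold T-type channels, and most work with alpha2delta and beta subunits that bring them to the membrane. Several proteins of the gamma family serve mainly as partners of AMPA-type glutamate receptors.

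Values were log2 summaries made by the authors with RMA, so a difference of 1 is a doubling, and a level of 1 gene cannot be set against that of another. Array medians ran from 8.06 to 8.14, and single values from 3.46 to 14.80. On every array, the mean of the 14 dentate granule cell markers measured was at least 9.65 and that of the 11 pyramidal cell markers at least 10.41 (both lists mark neurons of the hippocampus). In whole tissue, fewer cells of a type and less RNA per cell cannot be told apart. 3 arrays stood apart in their correlation with the others over all probe sets: APP-PS1 control 1 (median Pearson r 0.990), wild-type ibuprofen 1 (0.987) and wild-type ibuprofen 5 (0.974). The other 16 arrays lay at 0.992 or above, so results are also given without those 3 arrays.

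Channel genes spread between arrays about as much as other genes. The SD within groups, pooled over the 4 groups, had a median of 0.12 over the 34 genes and 0.12 over all genes. The spread was smallest for the chosen probe set of Scn2a, the pore protein Nav1.2 of excitatory neurons, whose 19 values covered 0.21 in all. Other probe sets of Scn2a spread more. The next brightest had an SE of 0.20, against 0.04 for the chosen one, for APP-PS1 minus wild-type on control chow. The total range was widest for Cacng1, a gamma subunit of skeletal muscle channels, whose values covered 1.01. Across arrays, after group means were taken out, the highest Pearson correlations between members were 0.90 for Cacna1b and Cacna1i and 0.89 for Cacng2 and Cacng7. The lowest was -0.70 for Scn7a and Cacng3. These extremes were taken over 19 arrays that share library, labelling and signal scale, and were not recomputed without the 3 arrays that stand apart. In the heat map, wild-type ibuprofen 5 and APP-PS1 control 1 are warm for most calcium channel pore genes, and the APP-PS1 ibuprofen arrays other than 2 are cool for Cacna1a, Cacna1b, Cacna1d and Cacna1e.

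**Figure D1:**
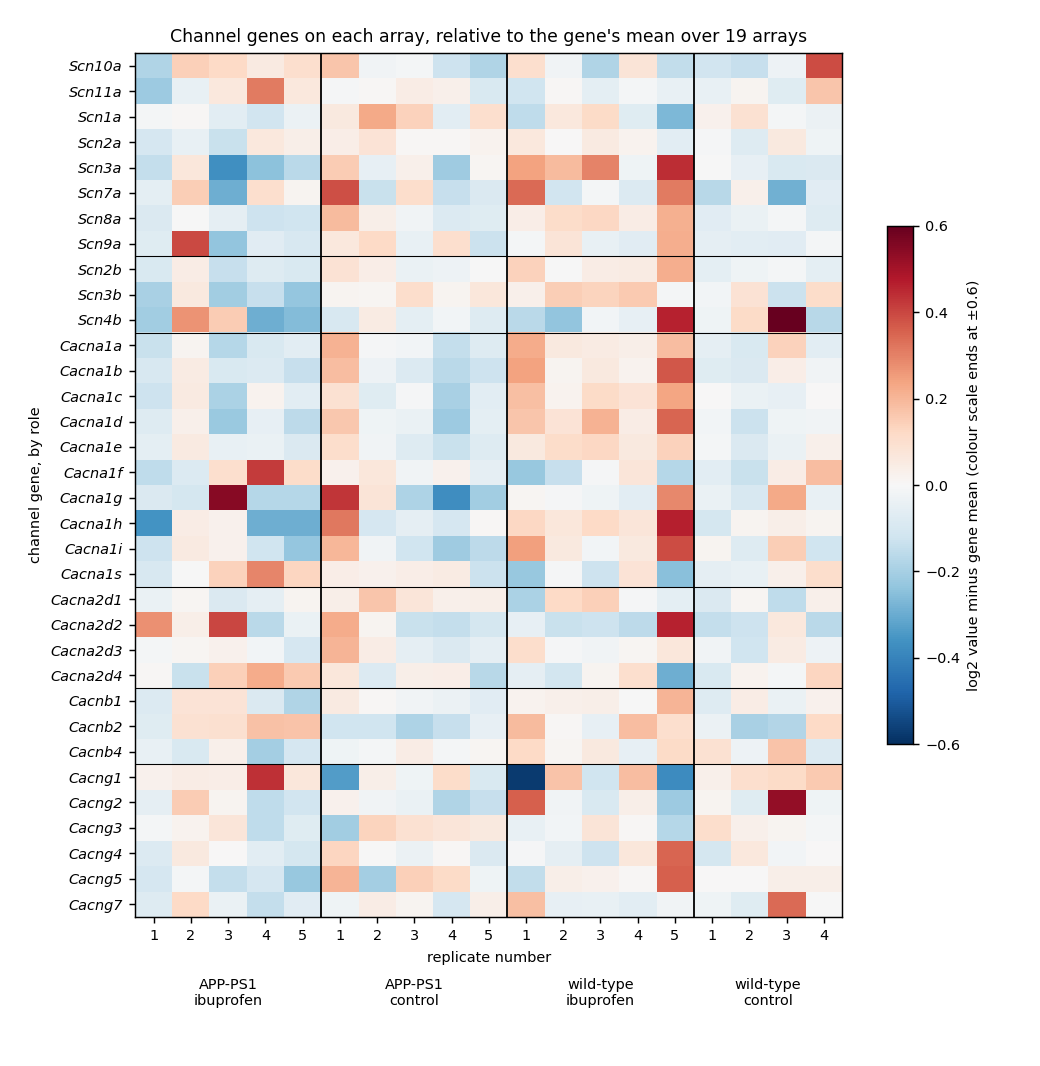
Each row is a channel gene, ordered by role, and each column is 1 array, with the colour giving the log2 value minus the mean of that gene over all 19 arrays. The colour scale ends at 0.6 either side, and black lines separate the 4 groups and the 6 roles. Wild-type ibuprofen 5 stands out with high values for most calcium channel pore genes.

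The question whether APP-PS1 mice differed from wild-type mice while both ate ibuprofen gave the largest single difference of the 4 comparisons of 2 groups. None of the 34 genes passed an adjusted p of 0.05 in limma, where 0.271% of all genes did. At an unadjusted p under 0.05, 12 channel genes were lower in APP-PS1 mice, against 18.2% of all genes, and 2 were higher, against 6.25%. The 12 genes were Scn3a, Scn3b, Scn8a, Scn2b, Cacna1a, Cacna1b, Cacna1c, Cacna1d, Cacna1e, Cacna1h, Cacna1i and Cacnb4, so 7 of the 10 calcium channel pore genes were among them. The 2 on the other side were Cacna1s and Cacng1, which encode parts of the skeletal muscle channel. In all, 24 channel genes lay below 0, against 62.2% of all genes. The median difference was -0.06 over the channel genes and -0.05 over all genes, and with each array centred on its median it was 0.01 over the channel genes, 17 of which then lay below 0. The genes lower at an unadjusted p under 0.05 then numbered 10, against 10.03% of all genes, and after quantile normalization also 10, against 10.3%.

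Scn3a encodes Nav1.3, the pore protein prominent in the embryonic and neonatal brain. It had values of 8.73, 8.94, 8.50, 8.62 and 8.71 in APP-PS1 mice on ibuprofen, against 9.11, 9.06, 9.17, 8.84 and 9.31 in wild-type mice on ibuprofen. A single pair of arrays, APP-PS1 ibuprofen 2 and wild-type ibuprofen 4, kept the groups from separating. The difference was -0.40 ± 0.09 (SE; 95% confidence interval -0.58 to -0.22), the largest of any channel gene here, with an adjusted p of 0.0501 in limma. Without the 3 arrays that stand apart it was -0.33, with an adjusted p of 0.178. Leaving out 1 array brought Scn3a past the threshold in 4 cases, with adjusted p of 0.00685 without APP-PS1 ibuprofen 2, 0.0166 without wild-type ibuprofen 4, 0.0397 without APP-PS1 control 1 and 0.0450 without APP-PS1 control 4 in limma. Of all genes, 2.23%, 7.47%, 0.502% and 0.256% passed in these 4 cases, in that order, against 0.271% with all arrays. With other arrays left out, the adjusted p of Scn3a in limma rose to as much as 0.151.

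Scn3b encodes the beta3 subunit, which modulates gating and surface expression. It had 12.06, 12.32, 12.05, 12.12 and 12.03 in APP-PS1 mice on ibuprofen, against 12.29, 12.41, 12.39, 12.42 and 12.25 in wild-type mice on ibuprofen. APP-PS1 ibuprofen 2 was again the array inside the range of the other group, and the other 4 lay below it. The difference was -0.24 ± 0.05 (SE; adjusted p in limma 0.0553), and it was -0.29 (adjusted p 0.0543) without the 3 arrays, where the groups no longer overlapped. With 1 array left out, the adjusted p was 0.00314 without APP-PS1 ibuprofen 2, 0.0405 without wild-type ibuprofen 4 and 0.0466 without wild-type control 3 in limma. In these cases 2.23%, 7.47% and 0.326% of all genes passed, in that order. The adjusted p of Scn3b in limma rose to as much as 0.166 with other arrays left out.

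Scn8a encodes Nav1.6, the main pore of mature axon initial segments and nodes of Ranvier. It had 11.59, 11.68, 11.63, 11.56 and 11.56 in APP-PS1 mice on ibuprofen, against 11.72, 11.79, 11.81, 11.72 and 11.89 in wild-type mice on ibuprofen. All 5 APP-PS1 arrays lay below all 5 wild-type arrays, with a difference of -0.18 ± 0.05 (SE; adjusted p in limma 0.0879, but 0.0431 without APP-PS1 ibuprofen 2, 0.0388 without wild-type ibuprofen 4 and 0.0432 without APP-PS1 control 1). In these cases 2.23%, 7.47% and 0.502% of all genes passed, in that order. The adjusted p of Scn8a in limma rose to as much as 0.224 with other arrays left out. Scn2b, the beta2 subunit that links to pore proteins by a disulphide bond, averaged 11.48 ± 0.07 in APP-PS1 mice and 11.64 ± 0.09 in wild-type mice on ibuprofen (SD, n = 5 each). Its groups overlapped, and its difference was -0.16 ± 0.05 (SE; adjusted p in limma 0.107, but 0.0354 without APP-PS1 ibuprofen 2 and 0.0452 without wild-type ibuprofen 4). No other omission of 1 array brought Scn2b past the threshold, and 2.23% and 7.47% of all genes passed with these omissions. The other sodium channel genes lay nearer to 0: Scn2a gave -0.05 ± 0.04, Scn1a, the Nav1.1 pore of inhibitory interneurons, 0.02 ± 0.07, and Scn4b, the beta4 subunit abundant in striatum, -0.07 ± 0.14. Scn7a, Scn9a, Scn10a and Scn11a, known best from glia or peripheral sensory neurons, gave differences from -0.11 to 0.08, and all 4 had overlapping groups.

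Among calcium channel pore genes 8 of 10 lay below 0, with a median of -0.19. After quantile normalization or centring of the arrays 7 of 10 lay below 0, with medians of -0.12 and -0.13. Cacna1d, the L-type pore Cav1.3 that opens at relatively low voltage, had 9.65, 9.76, 9.50, 9.68 and 9.57 in APP-PS1 mice on ibuprofen, against 9.89, 9.81, 9.94, 9.77 and 10.08 in wild-type mice on ibuprofen. The groups did not overlap, and the difference was -0.27 ± 0.07 (SE; adjusted p in limma 0.0923). Without the 3 arrays it was -0.21 (adjusted p 0.224), and it passed the threshold without APP-PS1 ibuprofen 2 (0.0414) or wild-type ibuprofen 4 (0.0373). Of all genes, 2.23% and 7.47% passed with these omissions, and Cacna1d passed with no other array left out. Cacna1c, the other L-type pore of neurons (Cav1.2), gave -0.19 ± 0.06 with overlapping groups.

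Cacna1h, the T-type pore Cav3.2, had 9.93, 10.33, 10.31, 9.995 and 9.99 in APP-PS1 mice on ibuprofen, against 10.41, 10.36, 10.40, 10.36 and 10.75 in wild-type mice on ibuprofen. Here too the groups stayed apart, APP-PS1 ibuprofen 2 and 3 lying just under the lowest wild-type arrays, and the difference was -0.35 ± 0.09 (SE; adjusted p in limma 0.0955, but 0.0344 without APP-PS1 ibuprofen 2 and 0.0412 without wild-type ibuprofen 4). With these omissions 2.23% and 7.47% of all genes passed, and Cacna1h passed with no other array left out. The other T-type pores did not follow it closely: Cacna1i (Cav3.3) gave -0.23 ± 0.09 with overlap, and Cacna1g (Cav3.1) -0.04 ± 0.14, with a value of 10.57 on APP-PS1 ibuprofen 3 against 9.85 to 9.94 on the other arrays of that group. Cacna1f, the L-type pore of the retina (Cav1.4), gave 0.17 ± 0.09. The pores of presynaptic terminals were Cacna1a (P/Q-type, Cav2.1) at -0.20 ± 0.06, Cacna1b (N-type, Cav2.2) at -0.21 ± 0.07 and Cacna1e (R-type, Cav2.3) at -0.13 ± 0.04, and for Cacna1a and Cacna1e all APP-PS1 arrays lay below all wild-type arrays. Without wild-type ibuprofen 4, Cacna1a and Cacna1b passed too (adjusted p 0.0491 and 0.0483 in limma), as did 7.47% of all genes. Altogether 5 channel genes had groups that did not overlap and were lower in APP-PS1 mice (Scn8a, Cacna1a, Cacna1d, Cacna1e and Cacna1h), against 2.06% of all genes. Without the 3 arrays there were 7, against 3.18% of all genes, with Scn3b and Cacng5 added.

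The auxiliary calcium channel subunits showed values of both signs. Of the alpha2delta genes, which promote trafficking of the pore and bind gabapentin in the case of the first 2 members, Cacna2d1 gave -0.03 ± 0.05, Cacna2d2 0.10 ± 0.11, Cacna2d3 -0.05 ± 0.05 and Cacna2d4 0.15 ± 0.08. Of the cytoplasmic beta genes, Cacnb4 gave -0.13 ± 0.05 (unadjusted p 0.0154, adjusted p in limma 0.151), Cacnb1 -0.09 ± 0.05 and Cacnb2 0.01 ± 0.07. Of the gamma genes that encode AMPA receptor partners, Cacng2 (stargazin) gave -0.04 ± 0.10, Cacng3 0.00 ± 0.06, Cacng4 -0.09 ± 0.07, Cacng5 -0.17 ± 0.08 and Cacng7 -0.04 ± 0.07. The other probe set of Cacng2 gave -0.12 ± 0.05 (unadjusted p 0.0208, adjusted p 0.199 in limma over all probe sets). It gave -0.10 ± 0.05 for ibuprofen in APP-PS1 mice and -0.16 ± 0.07 for the interaction (unadjusted p 0.0432 and 0.0379 in limma). The chosen Cacng2 probe set gave 0.04 and 0.14 there. Cacng1 gave 0.27 ± 0.12 and Cacna1s 0.20 ± 0.08, and these became 0.04 and 0.11 without the 3 arrays.

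**Figure D2:**
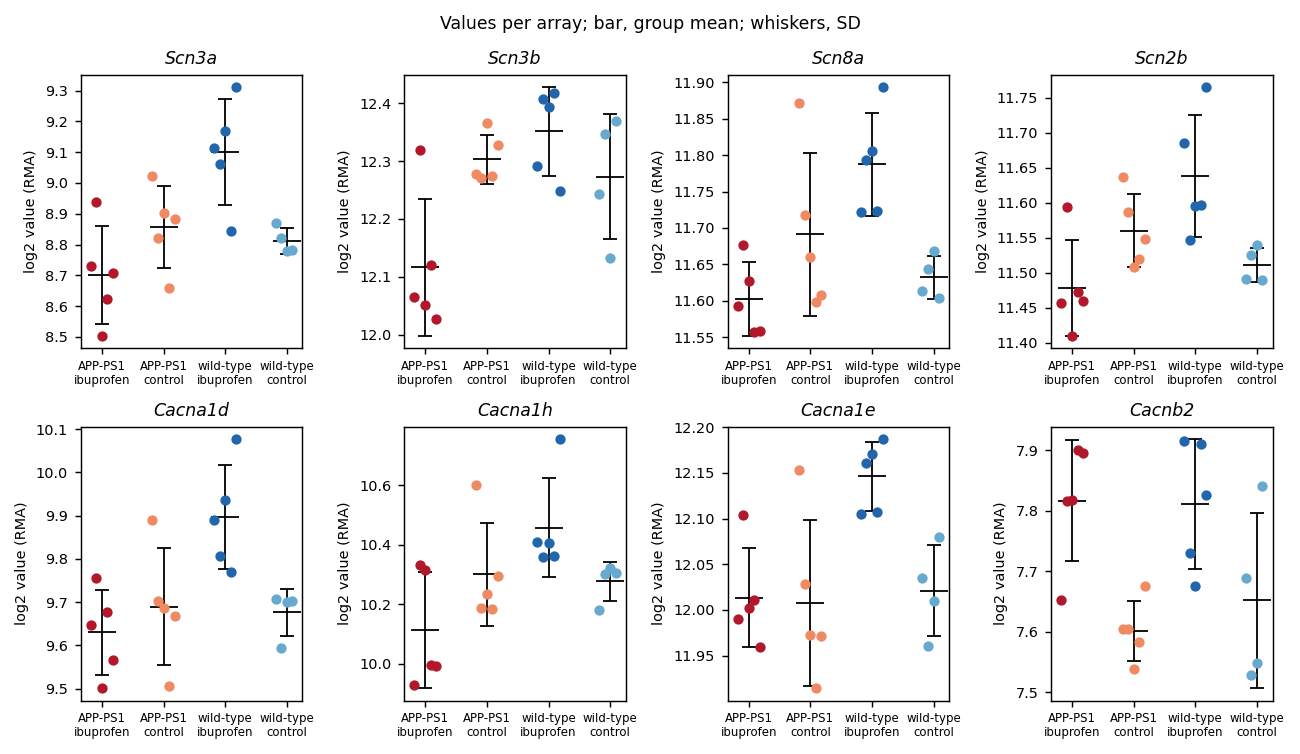
Each panel shows 1 channel gene, with a point per array, a bar at the group mean and whiskers of 1 SD, on a log2 axis that differs between panels and does not start at 0. For Scn8a, Cacna1d, Cacna1h and Cacna1e the APP-PS1 ibuprofen points lie below all wild-type ibuprofen points, while for Scn3a, Scn3b and Scn2b they overlap.

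The RefSeq promoter table used here (build GRCm38.p6) covered 26 of the 34 genes, with 36 promoters of 250 bases. It did not cover Scn3a, Scn3b, Cacna1a, Cacna1g, Cacna1h, Cacna2d4, Cacng1 and Cacng4, so the promoter counts below leave these genes out. The following 3 belong to members among those with the smallest p above, and are shown because their base composition is so unlike. They are written along the gene's strand, ending at the base before the start, with CpG dinucleotides in capitals. One start of Scn8a (chr15:100870395-100870644, plus strand), Scn2b (chr9:45117626-45117875, plus strand) and one start of Cacna1d (chr14:30353487-30353736, minus strand) read as follows.
Scn8a: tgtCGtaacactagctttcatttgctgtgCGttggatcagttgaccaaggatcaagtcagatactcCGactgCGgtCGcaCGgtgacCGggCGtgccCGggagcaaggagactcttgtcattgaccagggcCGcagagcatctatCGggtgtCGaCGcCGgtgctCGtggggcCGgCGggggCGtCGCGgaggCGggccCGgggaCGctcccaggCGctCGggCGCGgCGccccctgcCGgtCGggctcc
Scn2b: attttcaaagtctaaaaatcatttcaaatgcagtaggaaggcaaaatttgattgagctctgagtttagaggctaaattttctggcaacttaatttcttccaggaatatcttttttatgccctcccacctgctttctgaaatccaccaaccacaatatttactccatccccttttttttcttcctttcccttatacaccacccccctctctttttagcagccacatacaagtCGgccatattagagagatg
Cacna1d: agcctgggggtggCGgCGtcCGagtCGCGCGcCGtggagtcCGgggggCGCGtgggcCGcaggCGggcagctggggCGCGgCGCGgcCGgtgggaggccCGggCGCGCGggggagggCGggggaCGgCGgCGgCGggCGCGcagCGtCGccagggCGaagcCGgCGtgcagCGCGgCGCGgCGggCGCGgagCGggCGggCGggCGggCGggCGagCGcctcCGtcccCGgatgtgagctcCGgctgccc
The Scn2b promoter held 1 CpG and 38.4% G and C, the Scn8a promoter 30 CpGs and 68% G and C, and the Cacna1d promoter 50 CpGs and 86.4% G and C. The other start of Cacna1d had 2 CpGs and 39.6% G and C, and that of Scn8a 9 CpGs and 53.2%. Over the promoters of the members the medians were 56.8% G and C and 9 CpGs, against 52.4% and 6 in 32851 promoters of all genes. The GC box GGGCGG, searched on both strands, was found in 14 of the 36 member promoters (38.9%, against 32.7% of all promoters), the printed Cacna1d promoter among them and the printed Scn8a and Scn2b promoters not. CAGCACC, the left part of the element bound by the neuronal repressor REST, was found on neither strand in any of the 36, against 5.73% of all promoters. The 2 motifs were counted separately.

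The difference between APP-PS1 and wild-type mice on ibuprofen also went with the brightness of a probe set. When all genes were ordered by their mean and split into 4 bins of like size, the median difference of all genes was 0.02, 0.04, -0.13 and -0.08 from the dimmest bin to the brightest. The channel genes numbered 3, 7, 5 and 19 in those bins, with medians of 0.08, 0.01, -0.17 and -0.13. In the brightest bin, 10 of 19 channel genes were lower at an unadjusted p under 0.05, against 25.7% of all genes of that bin. Without the 3 arrays these were 9 of 19, against 11.8%. Over all 34 genes, 11 were then lower at that level, against 5.85% of all genes, Cacna2d1 at -0.12 having joined them, and 1 was higher, Cacna2d2 at 0.24, against 4.11%.

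**Figure D3:**
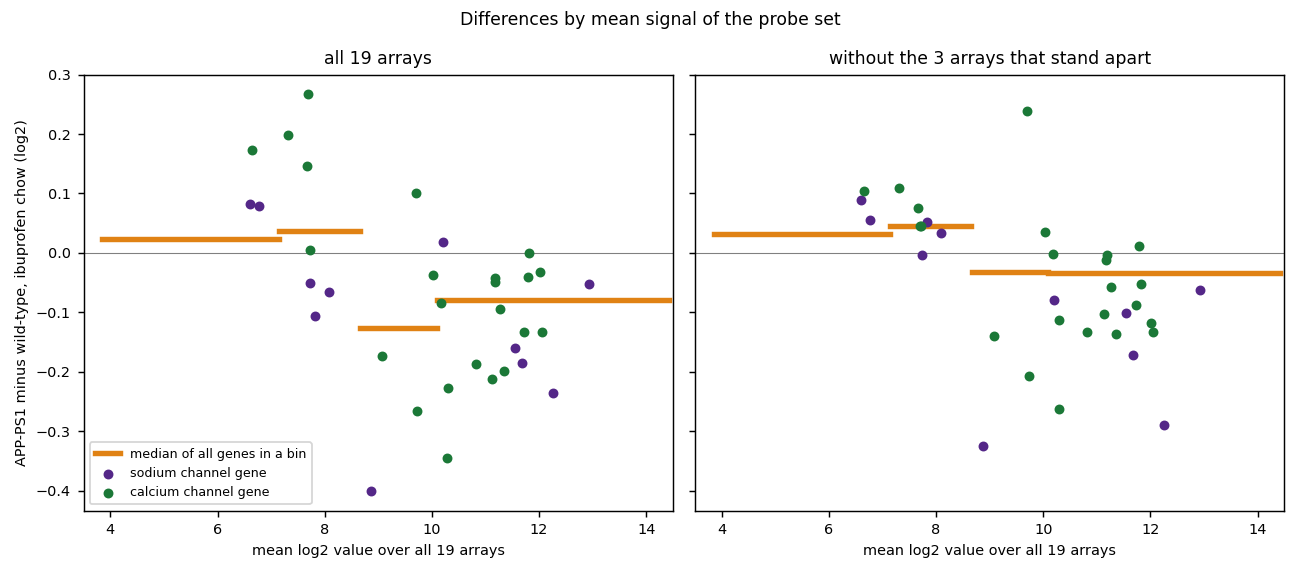
Each point is a channel gene, plotted by its mean log2 value over all 19 arrays and its log2 difference between APP-PS1 and wild-type mice on ibuprofen chow, with all arrays on the left and without the 3 arrays that stand apart on the right. Bars mark the median of all genes in each of the 4 bins of mean signal, which runs from 0.04 down to -0.13 with all arrays.

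The mean of dentate granule cell markers was also lower in APP-PS1 mice than in wild-type mice on ibuprofen. The mean of the 14 measured of 15 markers was 9.87, 10.21, 9.65, 9.94 and 9.98 in APP-PS1 mice on ibuprofen, against 10.28, 10.29, 10.33, 10.24 and 10.47 in wild-type mice on ibuprofen. These groups did not overlap either, 12 of the 14 markers lay below 0 and 5 passed the adjusted threshold in limma. The lowest dentate value was that of APP-PS1 ibuprofen 3, which also had the lowest Scn3a, and the highest of that group was APP-PS1 ibuprofen 2, which had the highest Scn3a, Scn3b, Scn8a and Cacna1d of that group. The order of the arrays did not match throughout. On APP-PS1 ibuprofen 3, Scn8a and Cacna1h were next to the highest of that group. Scn3b was lowest on APP-PS1 ibuprofen 5, whose dentate mean was 9.98. With the dentate mean as a covariate the difference was -0.16 for Scn3a, -0.10 for Scn3b and -0.19 for Scn8a, all with an adjusted p of 0.999 in limma. Without the covariate these differences were -0.40, -0.24 and -0.18. Over all genes, 2 were called with this covariate and 54 without it. The dentate means did not overlap between the 2 groups compared, so this fit cannot separate them from genotype. Pyramidal cell marker means covered 10.41 to 10.62 in APP-PS1 mice and 10.55 to 10.75 in wild-type mice on ibuprofen, with 9 of 11 markers below 0. Inhibitory interneuron marker means covered 10.68 to 10.84 in APP-PS1 mice and 10.76 to 11.01 in wild-type mice on ibuprofen, with 10 of 12 markers below 0. Those of oligodendrocyte precursors covered 9.49 to 9.66 in APP-PS1 mice and 9.57 to 10.01 in wild-type mice on ibuprofen, with 8 of 8 markers below 0. In these lists of pyramidal cells, interneurons and precursors, the highest wild-type means were on wild-type ibuprofen 1 and 5. Both are among the 3 arrays that stand apart. Of all genes, 62.2% lay below 0. The part of these lists in the channel gene differences was not tested. The mean of 12 pan-neuronal genes covered 12.39 to 12.43 in APP-PS1 mice and 12.31 to 12.41 in wild-type mice on ibuprofen. That of 15 choroid plexus genes covered 8.14 to 10.08 in APP-PS1 mice and 7.78 to 10.28 in wild-type mice on ibuprofen, and Scn3a gave -0.40 with it as a covariate.

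On control chow, the comparison of genotypes gave no channel gene at an adjusted p under 0.05 in limma (0.01% of all genes) and none at an unadjusted p under 0.05 (5.87% of all genes). Without the 3 arrays, Cacna2d1 and Cacng2 had an unadjusted p under 0.05, against 8.27% of all genes. With all arrays as deposited, 17 genes lay below 0 and 17 above it, against 42.1% and 57.9% of all genes, and the median was 0.00. The count below 0 was 24 without the 3 arrays, against 50.4% of all genes. After centring 24 also lay below 0 (57.9% of all genes, median -0.03 over channel genes), and after quantile normalization 23 (51.2%, median -0.03). The calcium channel pore genes below 0 were 6 of 10 with all arrays, 10 of 10 without the 3 arrays, 10 of 10 after centring and 8 of 10 after quantile normalization, with medians from -0.05 to 0.00. The smallest p belonged to Cacna2d1, the alpha2delta1 subunit, which had 12.05, 12.18, 12.09, 12.04 and 12.05 in APP-PS1 mice, against 11.93, 12.02, 11.86 and 12.04 in wild-type mice on control chow. The ranges did not overlap, although APP-PS1 control 4 at 12.0429 and wild-type control 4 at 12.0426 all but touched. The difference was 0.12 ± 0.06 (SE; unadjusted p 0.0513, adjusted p in limma 0.849), and groups without overlap in that direction were found for 2.94% of all genes. Cacng2 followed with -0.18 ± 0.11, where a value of 11.71 on wild-type control 3 stood against 11.11 to 11.20 on the other 3 arrays of its group, and Cacng1 with -0.16 ± 0.13. The other probe set of Cacng2 gave 0.04 and the other one of Cacna2d1 gave 0.06. Scn3a, Scn3b and Scn8a gave 0.04 ± 0.09, 0.03 ± 0.06 and 0.06 ± 0.05, with 95% confidence intervals of -0.15 to 0.24, -0.09 to 0.15 and -0.05 to 0.17.

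Ibuprofen in wild-type mice gave no call either (0% of all genes). At an unadjusted p under 0.05, 8 channel genes were higher on ibuprofen, against 9.08% of all genes, and none was lower, against 1.95%. They were Scn3a, Scn8a, Scn2b, Cacna1b, Cacna1c, Cacna1d, Cacna1e and Cacnb2. Scn3a had the 5 values given above on ibuprofen and 8.87, 8.82, 8.78 and 8.78 on control chow, so that 4 of the 5 ibuprofen arrays lay above the control arrays, and the difference was 0.29 ± 0.09 (SE; adjusted p in limma 0.432). Scn8a had 11.61, 11.64, 11.67 and 11.60 on control chow, below all 5 ibuprofen values, with a difference of 0.16 ± 0.05 (adjusted p 0.432). Cacna1d, with 9.71, 9.60, 9.70 and 9.70 on control chow, likewise lay below its ibuprofen values and gave 0.22 ± 0.08, and Cacna1e gave 0.12 ± 0.04. In 6 channel genes all ibuprofen arrays lay above all control arrays (Scn8a, Scn2b, Cacna1c, Cacna1d, Cacna1e and Cacna1h), against 1.94% of all genes. Without wild-type ibuprofen 1 and 5 and APP-PS1 control 1 there were 7 such genes, against 2.88%, with Scn3b added, and 6 genes higher at an unadjusted p under 0.05, against 2.31%. 23 channel genes lay above 0, against 66.8% of all genes. The median was 0.06 over channel genes and 0.05 over all genes, and that of the channel genes was 0.00 after quantile normalization and -0.01 after centring. The genes higher at an unadjusted p under 0.05 then numbered 5 after quantile normalization (4.35% of all genes) and 3 after centring (4.03%).

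Markers of several cell types also lay higher on ibuprofen in wild-type mice, where 66.8% of all genes lay above 0. Oligodendrocyte marker means covered 11.15 to 11.34 on ibuprofen and 11.10 to 11.24 on control chow, with 0 of 11 markers below 0 and 4 higher at an unadjusted p under 0.05. No marker lay below 0 among the 8 of oligodendrocyte precursors (means of 9.57 to 10.01 on ibuprofen and 9.57 to 9.62 on control chow) or the 9 of astrocytes (11.68 to 11.84 on ibuprofen and 11.54 to 11.78 on control chow). Dentate granule cell means covered 10.24 to 10.47 on ibuprofen and 10.10 to 10.27 on control chow, with 3 of 14 markers below 0. Pyramidal cell means covered 10.55 to 10.75 on ibuprofen and 10.50 to 10.56 on control chow, and interneuron means 10.76 to 11.01 on ibuprofen and 10.75 to 10.85 on control chow. Each of these 3 neuronal lists had 3 markers higher at an unadjusted p under 0.05, against 9.08% of all genes. For precursors, astrocytes, pyramidal cells and interneurons, the highest ibuprofen means were on wild-type ibuprofen 1 and 5. Both arrays stand apart over all probe sets. Interneuron means were 10.94 and 11.01 there, and 10.76 to 10.77 on the other ibuprofen arrays. None of the markers of the 6 lists above passed the adjusted threshold in limma for ibuprofen in wild-type mice. Their part in the channel gene values was not tested. Of the 12 pan-neuronal genes, 7 lay below 0 in this comparison. So did 7 of 9 neocortex and subiculum markers and 5 of 9 thalamus and habenula markers. In the remaining lists, 1 of 10 microglia, 1 of 13 endothelial and mural, 3 of 8 striatum and 3 of 15 choroid plexus markers lay below 0.

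Ibuprofen in APP-PS1 mice gave none at the adjusted threshold (0% of all genes) and 2 at an unadjusted p under 0.05, against 6.48% of all genes. Without APP-PS1 control 1 and the other 2 arrays there were 6, against 9.06%, with Scn1a, Cacna2d1, Cacna2d2 and Cacng3 added. Scn3b had the 5 ibuprofen values given above and 12.28, 12.27, 12.37, 12.27 and 12.33 on control chow. Only APP-PS1 ibuprofen 2 overlapped the control arrays, and the difference was -0.19 ± 0.05 (SE; unadjusted p 0.00223, adjusted p in limma 0.716). Cacnb2, the beta2 subunit that slows inactivation of the pore, had 7.65, 7.82, 7.82, 7.90 and 7.90 on ibuprofen, against 7.60, 7.60, 7.54, 7.58 and 7.68 on control chow. Again 1 ibuprofen array, here number 1, lay among the controls, and the difference was 0.22 ± 0.07 (unadjusted p 0.00696, adjusted p 0.716). Cacnb2 gave 0.16 ± 0.08 in wild-type mice, and over both genotypes 0.19 ± 0.05 (unadjusted p 0.00179). The next was Scn1a at -0.14 ± 0.07, and Scn3a and Scn8a gave -0.16 ± 0.09 and -0.09 ± 0.05. Cacna2d1 gave -0.10 ± 0.05, with all ibuprofen arrays (11.92 to 12.03) below all control arrays (12.04 to 12.18), against 2.27% of all genes.

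**Figure D4:**
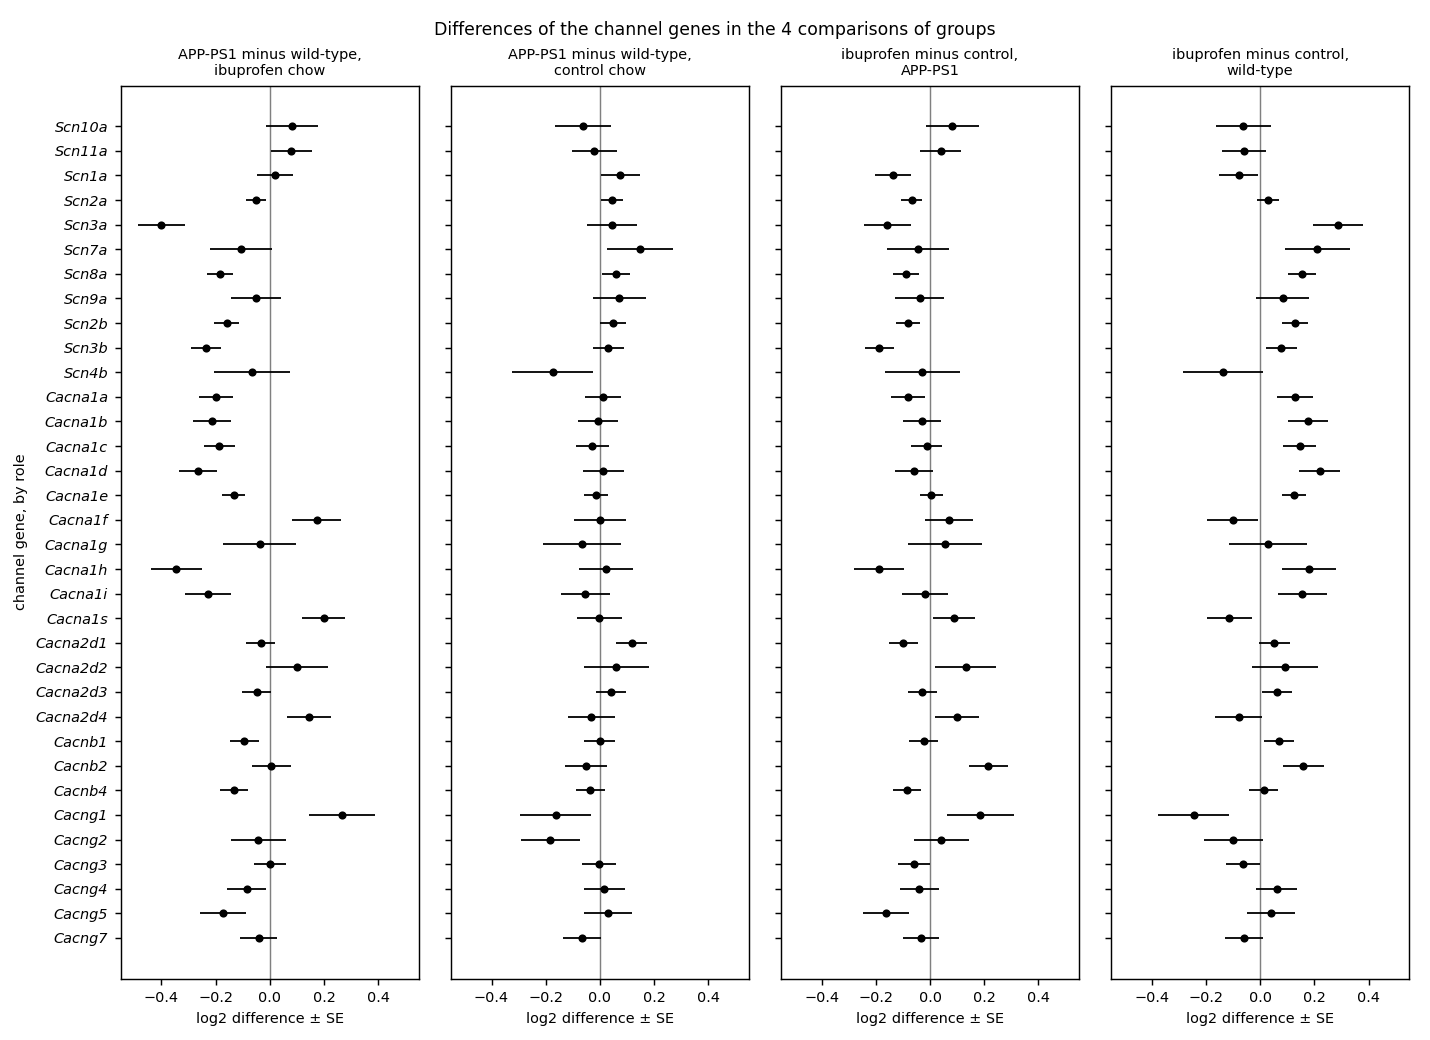
Each row is a channel gene and each panel a comparison, with the point at the log2 difference and the line spanning 1 SE either side. The points for calcium channel pore genes lie mostly left of 0 in the first panel (8 of 10) and right of 0 in the last (8 of 10), and in the other 2 panels 6 of 10 lie left of 0, with all arrays as deposited. After quantile normalization, 8 of 10 lie left of 0 for APP-PS1 minus wild-type on control chow and 2 of 10 for ibuprofen in APP-PS1 mice.

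Whether the ibuprofen difference depended on genotype was tested by the interaction, the ibuprofen difference in APP-PS1 mice minus that in wild-type mice. None of the 34 genes passed the adjusted threshold (0% of all genes). At an unadjusted p under 0.05, 7 were below 0 (16% of all genes) and 1 above it, Cacng1 at 0.43 ± 0.18 (4.5% of all genes). Scn3a gave -0.44 ± 0.13, Scn8a -0.24 ± 0.07, Scn3b -0.27 ± 0.08 and Scn2b -0.21 ± 0.07 (SE; adjusted p in limma 0.208 for each). Without the 3 arrays, 5 were below 0 at that unadjusted level, against 6.79% of all genes. They numbered 3 after centring (7.19% of all genes) and 4 after quantile normalization (6.52%). The comparisons on ibuprofen chow and in wild-type mice share the 5 wild-type ibuprofen arrays, so their values are not separate evidence. Averaged over both diets, APP-PS1 minus wild-type called no channel gene (0.0251% of all genes), and 10 were lower at an unadjusted p under 0.05, against 5.36% of all genes. Leaving out the 3 arrays, 10 were lower as well, against 4.38%. After quantile normalization 10 were lower, against 6.54%, and after centring 6, against 5.87%. The first of these with all arrays was Scn3a at -0.18 ± 0.06 (adjusted p 0.497 in limma), followed by Scn3b at -0.10 ± 0.04 and Cacna1c at -0.11 ± 0.04. In the brightest bin 8 of 19 channel genes were among them, against 8.99% of all genes of that bin. Ibuprofen averaged over both genotypes called none (0% of all genes), with Cacnb2, Scn1a and Cacna1e at an unadjusted p under 0.05, against 1.74% of all genes.

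Scn2a was covered by 14 probe sets with its symbol alone, the most of any member. For APP-PS1 minus wild-type on ibuprofen chow their differences ran from -0.05 to 0.49 with a median of 0.04, and none had an unadjusted p under 0.05 in limma. With ibuprofen averaged over both genotypes all 14 lay below 0, from -0.20 to -0.02, again with none at an unadjusted p under 0.05. In the genome several members are direct neighbours: Scn3a and Scn2a, and Scn1a, Scn9a and Scn7a, on chromosome 2, Scn2b and Scn4b as well as Scn10a and Scn11a on chromosome 9, and Cacng1, Cacng4 and Cacng5 on chromosome 11. For APP-PS1 minus wild-type on ibuprofen chow, Scn3a gave -0.40 and Scn2a -0.05, Scn2b -0.16 and Scn4b -0.07, Scn10a and Scn11a 0.08 each, Scn1a 0.02, Scn9a -0.05 and Scn7a -0.11, and Cacng1 0.27, Cacng4 -0.09 and Cacng5 -0.17.

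Proteins that anchor, modify or act with these channels were read from 2 lists. Of 18 measured partners of sodium channels (ankyrins, spectrins, intracellular fibroblast growth factors, calmodulins, axonal adhesion proteins, ubiquitin ligases and the M-type potassium channel), 1 passed the adjusted threshold between genotypes on ibuprofen chow. This was Kcnq3, a potassium channel pore held at the axon initial segment with Scn8a protein. It had 10.99, 11.21, 10.89, 10.96 and 10.94 in APP-PS1 mice, against 11.28, 11.30, 11.38, 11.23 and 11.28 in wild-type mice on ibuprofen. All APP-PS1 arrays lay below all wild-type arrays, so Kcnq3 fell by 0.29 ± 0.05 on the log2 scale (SE; adjusted p in limma 0.0128, and 0.0449 without the 3 arrays). The next was Nedd4l, a ubiquitin ligase that removes sodium channels from the membrane, at -0.19 ± 0.04 (adjusted p 0.0556). Of 38 measured partners of calcium channels (active zone proteins, small GTPases, kinases, ryanodine receptors, calcium-activated potassium channels and AMPA receptor subunits), none passed, and 11 were lower at an unadjusted p under 0.05, against 18.2% of all genes. Ryr1 and Ryr3, calcium release channels of the endoplasmic reticulum, had the smallest p of these, at -0.32 ± 0.08 and -0.30 ± 0.08 (adjusted p 0.0845 and 0.0874 in limma). No partner of either list was called in the other 6 comparisons.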

How the data were processed

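Total RNA of 19 hippocampus samples, isolated by Trizol and then RNeasy, was hybridised to Affymetrix arrays, per the labels' protocols. The deposited table holds log2 values per probe set, which the authors made with RMA in Partek 6.5, per the submitters' processing notes. The RMA settings are not given in the sources used here, and no further normalization was applied. Of 35556 probe sets, 21789 carried 1 gene symbol, 1621 several and 12146 none in the array annotation used, and each of the 19938 genes was read from its probe set with the highest mean. All 34 members matched a RefSeq gene. 4 members had more than 1 probe set with their symbol alone. Another 3 probe sets carry several gene symbols, at least 1 of them of a channel gene, and were not used.

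A single limma model with 4 group means was fitted to all genes and all arrays (R 4.3.3, limma 3.58.1; eBayes with an intensity trend; 15 residual and 6.65 prior degrees of freedom). Tests were two-sided, with Benjamini-Hochberg adjustment over all genes of a comparison and a threshold of 0.05, in 7 comparisons. Replicates are separate samples by their titles, and no label says that each is another animal, so p-values measure only the spread between these samples. The number of arrays limits the precision.

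The members, partner lists and marker lists were chosen with earlier results of these data known. Named were the members with the 3 smallest p in each comparison of 2 groups and in the interaction, a fixed set of neuronal channel genes, partners past the threshold and, where a comparison is discussed, the 2 partners with the smallest p. 12 alternatives and the omission of each array in turn were tried. The models were tested on simulated data. Promoters were read from RefSeq tables and searched with Python 3.11.15.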

Additional observations from a re-analysis of the deposited data

Results flagged for a closer look

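In 18 of the 136 combinations of a channel gene and a group, 13.2%, the highest or lowest array lay far from the nearest other array of its group, where chance gives about 1 in 20 and the same measure gave 8.41% over all genes and groups. These 18 involved 13 genes, and 4 of them lay on wild-type ibuprofen 5 and 4 on wild-type control 3. On wild-type ibuprofen 5, an array that stands apart over all probe sets, the high values were Cacna1g 10.31, Cacna1h 10.75, Cacna2d2 10.17 and Cacnb1 11.47. On wild-type control 3 they were Cacna1a 11.49, Cacna1g 10.25, Cacng2 11.71 and Cacng7 12.13. In the remaining wild-type arrays, Cacng7 was high on wild-type ibuprofen 1 (11.97), Cacna1d was low on wild-type control 2 (9.595) and Cacna1h low on wild-type control 1 (10.18).

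Among APP-PS1 mice on ibuprofen, Cacna1g was high on array 3 (10.57), Cacng1 high on array 4 (8.134), Scn9a high on array 2 (8.128) and Scn10a low on array 1 (6.427). Among APP-PS1 mice on control chow, Cacna1h was high (10.6) and Cacng3 low (11.61) on array 1, and Cacna1s was low on array 5 (7.183).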

How the results depend on the processing

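For APP-PS1 minus wild-type on ibuprofen chow, where no channel gene was called, 2 were called with the dimmest of 4 bins of genes left out, 1 without the intensity trend, 2 with robust empirical Bayes and 7 with array weights. Those 7 were Scn3a, Scn3b, Scn8a, Cacna1a, Cacna1d, Cacna1e and Cacna1h. Over all genes, 54 were called in the main fit. The counts were 128 without the dimmest bin, 53 without the intensity trend, 91 with robust empirical Bayes and 1004 with array weights. With a replicate block 197 were called, and with the arrays of the groups compared alone 5. Only the arrays of the groups compared gave Scn3a an adjusted p of 0.278 in limma. Leaving out 1 array gave 0 to 8 calls: 6 without APP-PS1 ibuprofen 2, 8 without wild-type ibuprofen 4, 2 without APP-PS1 control 1, and 1 without APP-PS1 control 4 or wild-type control 3. The share of all genes called was 2.23% without APP-PS1 ibuprofen 2, 7.47% without wild-type ibuprofen 4, 0.502% without APP-PS1 control 1, 0.256% without APP-PS1 control 4 and 0.326% without wild-type control 3, against 0.271% with all arrays. Array weights also called 1 gene for ibuprofen in APP-PS1 mice (Scn3b), 3 for the interaction (Scn3b, Scn8a and Cacna2d1) and 2 for the genotype average (Scn3b and Cacna1e), where 108, 174 and 342 of all 19938 genes were called. No label says what a replicate number marks. Deviations of same-numbered arrays from their group means correlated from -0.27 to 0.60 (median 0.13, with 17 of 27 pairs over 0.1), against a median of -0.05 and 29 of 108 for arrays of other numbers, and 11 of 19 arrays correlated best with an array of their own number. These values hint at a shared factor, but since not every pair was over 0.1 the numbers were not taken as pairs. With the replicate number as a block, 2 channel genes were called on ibuprofen chow (Scn3a, adjusted p 0.0275, and Scn3b, 0.0437) and none in the other comparisons.

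The median over channel genes on ibuprofen chow was 0.0068 after centring and ran from -0.117 to -0.0433 with 1 array left out. For ibuprofen in wild-type mice it was -0.00021 after quantile normalization and -0.0054 after centring, and for the interaction 0.0033, 0.0026 and, without the 3 arrays, -0.0400. The causes were not tested. None of the single-gene differences recomputed (the 3 with the smallest p in each comparison of 2 groups and in the interaction) changed sign under the alternatives run.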
